A study of Mus musculus with 2 samples.

Results

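The 7 miRNA genes Mir322, Mir503, Mir351, Mir542, Mir450-2, Mir450-1 and Mir450b form a single cluster on the minus strand of mouse chromosome X, and their levels were measured in neonatal heart. Members were taken by their GENCODE M21 symbols, by a rule that has no threshold on a measured value but was written with earlier results of these data known, and all 7 of 7 were found among the 2202 miRNA genes of the deposited tables. The hearts came from 2 male mice of the strain B6CASTF1/J at 4 days after birth, with 1 small-RNA library each. The labels name the animals male 3 and male 4 and number them biological replicates 1 and 2, with the same donor identifier on both. Both carry the same genotype and no treatment, so the only comparison possible is that between the libraries. If the animals were not separate, the spread between the libraries is technical. By the naming convention for mouse crosses these are first-generation offspring of a C57BL/6J mother and a CAST/EiJ father, so the X chromosome of a male comes from C57BL/6J.

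A miRNA is cut from a hairpin in a longer primary transcript by Drosha and then Dicer, and the mature strand guides Argonaute to messenger RNAs. Pairing rests mainly on the seed, bases 2 to 8 of the mature strand, so miRNAs that share a seed are grouped into families. Mir322 is the mouse counterpart of human MIR424. miR-322 and miR-503 belong to the extended miR-15/16 family, known for restraining the cell cycle, and in mouse myoblasts they are known to promote cell cycle exit during differentiation. miR-351 carries the seed of the miR-125 family. Each hairpin can give a miRNA from either arm, named 5p and 3p, and the tables count both arms of a gene together.

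The mature strands below show the seed in capitals and are those by which the members fall into families. They are given 5′ to 3′ from the RefSeq table of build GRCm38.p6, which held entries for all 7 members.
mmu-miR-322-5p: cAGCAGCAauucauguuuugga
mmu-miR-503-5p: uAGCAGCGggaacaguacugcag
mmu-miR-351-5p: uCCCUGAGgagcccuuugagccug
mmu-miR-542-3p: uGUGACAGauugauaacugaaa
mmu-miR-450a-5p: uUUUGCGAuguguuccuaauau
mmu-miR-450b-5p: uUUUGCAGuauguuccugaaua

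The main comparison strands, encoded outside the cluster, are shown for the same seeds.
mmu-miR-15a-5p: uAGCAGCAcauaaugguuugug
mmu-miR-15b-5p: uAGCAGCAcaucaugguuuaca
mmu-miR-16-5p: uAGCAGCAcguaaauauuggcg
mmu-miR-195a-5p: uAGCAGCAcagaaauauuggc
mmu-miR-497a-5p: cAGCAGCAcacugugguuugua
mmu-miR-125a-5p: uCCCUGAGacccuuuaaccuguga
mmu-miR-125b-5p: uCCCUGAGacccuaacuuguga

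miR-322-5p has the full seed of miR-15a, miR-15b, miR-16, miR-195a and miR-497a. miR-503-5p shares only bases 2 to 7 with them and differs at the last seed base. Outside the seed, likeness varied: miR-322-5p and miR-15b-5p were identical at 16 of 22 positions compared from the 5′ end without gaps, miR-322-5p and miR-16-5p at 12 of 22, and miR-322-5p and miR-503-5p at 11 of 22. Compared in the same way, miR-351-5p and miR-125a-5p matched at 10 of 24 positions, of which 2 of 16 lay after base 8. Both strands hold the run CCCUUU after the seed, but at shifted positions, so a comparison without gaps largely misses it. The seeds of miR-450a-5p and miR-450b-5p differ from each other, although the strands are identical at 15 of 22 positions. No other mature entry of the table had the seed of miR-542-3p. In all, the 14 mature entries of the members hold 13 distinct sequences and 12 distinct seeds.

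The repeated sequence is miR-450a-5p, which both Mir450-1 and Mir450-2 encode. Their hairpins share a run of 25 bases on which the whole of miR-450a-5p lies, shown here as DNA with the mature part in capitals.
Mir450-1 and Mir450-2: tTTTTGCGATGTGTTCCTAATATgt
A read inside this run fits both hairpins, and the tables keep reads that map to several places apart from the gene counts. The values of Mir450-1 and Mir450-2 given below are thus those of reads that could be placed in 1 of the genes, and they are uncertain as levels. None of the other 5 members shared a 20-base window with another annotated miRNA hairpin. Of all 2202 genes 1084 did, and of the 441 genes with 10 or more counts 97 did. The longest run of Mir450b found elsewhere was 19 bases, in Mir450-1, and those of Mir322, Mir503, Mir351 and Mir542 were 11 to 13 bases.

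The cluster spans 6353 bases (chrX:53047997-53054349, mm10). Along the minus strand the genes run from Mir322 (53054255 to 53054349) through Mir503 (53053984 to 53054054), Mir351 (53053255 to 53053353), Mir542 (53049403 to 53049487), Mir450-2 (53048299 to 53048367) and Mir450-1 (53048154 to 53048244) to Mir450b (53047997 to 53048078). The hairpins are unevenly spaced. Gaps of 200 and 630 bases separate Mir322, Mir503 and Mir351, then 3767 bases follow before Mir542 and 1035 before Mir450-2, and the Mir450 hairpins lie 54 and 75 bases apart. In GENCODE M21 each hairpin is the exon of its own gene, and none lies inside another gene. The long noncoding RNA gene C430049B03Rik ends 696 bases upstream of Mir322 in that annotation (53055046 to 53057190), and the lincRNA gene Gm28730 (53051194 to 53053159) lies between Mir351 and Mir542. In RefSeq the C430049B03Rik gene is longer (53053112 to 53057190) and its span contains Mir322, Mir503 and Mir351.

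**Figure D1:**
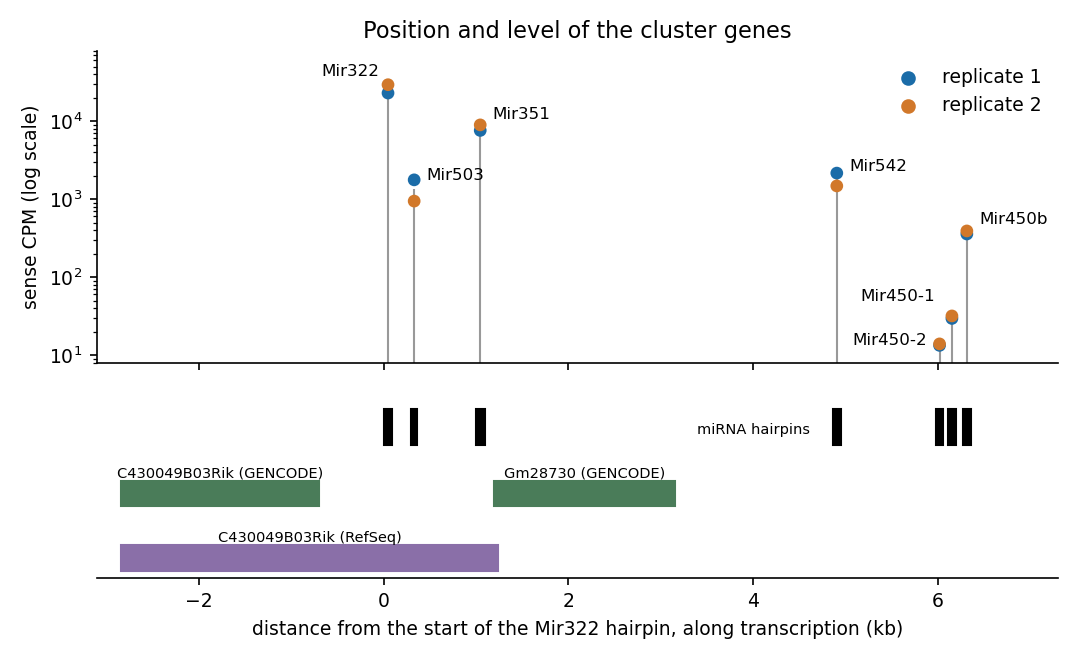
Upper panel: level of each cluster gene in CPM (sense counts scaled to a library total of 1000000; log scale) in replicate 1 (blue) and replicate 2 (orange), at its distance in kb from the start of the Mir322 hairpin along the direction of transcription. Lower panel: the hairpins (black) and the long noncoding RNA genes of GENCODE M21 (green) and RefSeq (purple). Level does not fall steadily along the cluster, since Mir503 lies between the higher Mir322 and Mir351; the points of Mir450-1 and Mir450-2 leave out reads of their shared run.

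Levels rest on sense counts, the reads that lie on the strand of the gene, of which replicate 1 had 4196577 and replicate 2 had 3801738, or 43.8% and 40.9% of all reads. Multi-mapped reads took 38.1% and 42.3%. The heart markers Mir208a, Mir208b and Mir499, which are encoded in myosin heavy chain genes, were detected at a summed 13054 and 8858 CPM. Endothelial Mir126a stood at 109199 and 49330 CPM and the smooth muscle genes Mir143 and Mir145a at a summed 48576 and 79468 CPM. All listed markers of red blood cells, white blood cells, liver and skeletal muscle had reads, at summed levels from 29.3 to 431 CPM. Of the 6 neuronal markers, the 3 Mir124a genes and Mir9-2 were at 0 in both libraries, and the sum was 0.238 and 22.1 CPM, nearly all of it from Mir9-3. Reads that fit several copies of a gene are not in these counts, so a 0 does not show that the miRNA was absent. Of the 10 testis markers on chromosome X, 8 were at 0 and the others had a single read each. Mir126a, the only endothelial gene listed, and the summed heart markers were thus lower in replicate 2. The summed smooth muscle genes were higher there. What these cell types contribute to the values below was not tested. These are whole hearts, in which fewer cells of a type and less RNA per cell cannot be told apart. Errors written ± are SDs over the libraries (n = 2). Intervals in parentheses are 95% intervals (Wilson for shares), and they cover counting error only, not the spread between animals or library preparations. They can be too narrow even for counting error, because reads of an amplified library are not independent molecules.

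The cluster as a whole gave 146432 sense counts in replicate 1, a share of 3.49% (3.47 to 3.51), and 156561 in replicate 2, a share of 4.12% (4.10 to 4.14). The mean share was 3.80% ± 0.44. The summed level was 1.18-fold higher in replicate 2 (1.17 to 1.19 by counting error). No read lay on the opposite strand of any member. Of all reads on the 142 miRNA genes of chromosome X, the cluster held 51.1% (50.9 to 51.2) in replicate 1 and 56.1% (55.9 to 56.3) in replicate 2. Mir652 at 16224 ± 2138 CPM was the only other X-linked gene above Mir351. The other groups of neighbouring genes on that chromosome lay lower: the Mir532 group of 5 genes reached 3697 ± 106 CPM and the Mir92-2 group 46.9 ± 6.45 CPM. Multi-mapped reads are in none of these values, so genes whose mature strand is encoded at several places can be undercounted.

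Mir322, whose 5p strand carries the full miR-15/16 seed, led the cluster with 96329 counts in replicate 1 and 111612 in replicate 2, or 22954 and 29358 CPM. It was 10th in mean CPM among all 2202 genes and 10th in each library. This order holds for reads placed in 1 gene only, so miRNAs encoded at several places can rank too low. Its share of the cluster's counts was 65.8% (65.5 to 66.0) in replicate 1 and 71.3% (71.1 to 71.5) in replicate 2, with a mean of 68.5% ± 3.89. Its level was 1.28-fold higher in replicate 2 (1.27 to 1.29). The neighbours in the order of levels were Mir26b at 27083 ± 6632 CPM and Mir30d at 23293 ± 4891 CPM, and the range of Mir322 over the libraries overlapped with both.

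Mir503, 200 bases downstream and the other member of the miR-15/16 family, was far less abundant, with 7424 and 3592 counts or 1769 and 945 CPM. Its share of the cluster was 5.07% (4.96 to 5.18) in replicate 1 and 2.29% (2.22 to 2.37) in replicate 2. Its level was thus lower in replicate 2, at 0.534 of that in replicate 1 (0.513 to 0.556), the widest difference among the members. Mir322 exceeded Mir503 by 13.0-fold in replicate 1 (12.7 to 13.3) and by 31.1-fold in replicate 2 (30.1 to 32.1). Mir296 was its neighbour below in level, at 1720 and 926 CPM, and Mir676, also on chromosome X, its neighbour above at 1405 and 1373 CPM.

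Mir351, the member with the miR-125 seed, was second in the cluster with 31937 and 34073 counts, or 7610 and 8962 CPM. Its share of the cluster was nearly the same in both libraries, 21.8% (21.6 to 22.0) in replicate 1 and 21.8% (21.6 to 22.0) in replicate 2. Mir322 exceeded it by 3.02-fold (2.98 to 3.05) and 3.28-fold (3.24 to 3.32). Both of these genes were higher in replicate 2, and together they held 87.6% and 93.1% of the cluster's counts. Mir351 ranked below Mirlet7e at 11721 and 9987 CPM, whose range did not overlap with its own, and beside Mir151 at 7448 and 8569 CPM.

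Mir542, whose mature strands share a seed with no abundant gene of these libraries, gave 9061 and 5622 counts, or 2159 and 1479 CPM. Like Mir503 it was lower in replicate 2, at 0.685 of replicate 1 (0.662 to 0.708). The order of these genes was the same in both libraries, with Mir503 at 0.819 of Mir542 in replicate 1 (0.794 to 0.845) and 0.639 in replicate 2 (0.613 to 0.666), although their ranges over the libraries overlapped. Mir503 and Mir542 together held 11.3% of the cluster in replicate 1 and 5.89% in replicate 2.

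The Mir450 genes at the downstream end held 1.15% and 1.06% of the cluster's counts. Mir450b gave 1501 and 1488 counts, or 358 and 391 CPM. Mir450-1 gave 124 and 121 counts (29.5 and 31.8 CPM), and Mir450-2 gave 56 and 53 counts (13.3 and 13.9 CPM). For each of these genes the libraries lay close together, at 375 ± 23.8, 30.7 ± 1.61 and 13.6 ± 0.42 CPM. The counts of Mir450-1 and Mir450-2 leave out reads inside their shared run, so the 2.21-fold (1.60 to 3.09) and 2.28-fold (1.64 to 3.22) excess of Mir450-1 over Mir450-2 describes the remaining reads only.

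Across all 21 pairs of members, the gene with more reads was the same in both libraries. Scaled to hairpin length the order did not change either, from 275 CPM per base for Mir322 through 83.7 for Mir351, 21.4 for Mir542, 19.1 for Mir503, 4.57 for Mir450b and 0.337 for Mir450-1 to 0.198 for Mir450-2. The ratio within a pair was less steady. It moved by over 1.5 times between the libraries in 10 of the 21 pairs, all of which include Mir503 or Mir542. In 9 pairs the counting intervals of the libraries overlapped, for example Mir351 over Mir450b at 21.3 (20.2 to 22.4) and 22.9 (21.7 to 24.1).

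The Mir450 genes, which had the fewest assigned reads, differed from the other members in base composition. For Mir450-1 and Mir450-2 those reads leave out the ones inside the shared run, so their place in abundance is uncertain. The GC content of Mir322, Mir503, Mir351 and Mir542 was 50.5% to 54.9%, near the median of 50.8% over all miRNA genes, while Mir450-1, Mir450-2 and Mir450b had 33.0%, 36.2% and 30.5%. Predicted folding energy, from RNAfold, was lowest per base for Mir503 at -0.53 kcal/mol, and Mir322, Mir542 and Mir450-1 were all at -0.45. Mir351 at -0.38, Mir450-2 at -0.38 and Mir450b at -0.39 lay near the median over all genes of -0.37. Over the 441 genes with 10 or more counts the median energy per base was lower, at -0.43, and the median GC content was 51.4%.

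Between the libraries, 5 of the 7 members differed by Fisher's exact test of a gene's counts against the rest of its library (two-sided, Benjamini-Hochberg adjusted over the 441 genes with 10 or more counts, threshold 0.05). This test compares the libraries and takes counting error as the only error, and it called 56.9% of all tested genes, so the count is close to what most genes showed. Mir322, Mir351 and Mir450b were higher in replicate 2, a direction called for 20.4% of tested genes. Mir503 and Mir542 were lower, a direction called for 36.5%. The log2 ratio of replicate 2 over replicate 1, on log2(CPM + 1), was 0.35 for Mir322, with an adjusted p too small for the computation to tell from 0. It was 0.24 for Mir351 (adjusted p = 7.2e-98, Fisher's exact test) and 0.13 for Mir450b (adjusted p = 0.026, Fisher's exact test). It was -0.90 for Mir503 (adjusted p = 1.4e-220, Fisher's exact test) and -0.55 for Mir542 (adjusted p = 5.9e-112, Fisher's exact test). The ratios of Mir450-1 and Mir450-2, 0.10 and 0.06, did not pass (adjusted p = 0.67 and 0.89, Fisher's exact test).

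The members' median log2 ratio was 0.10, and that of all tested genes was -0.26. TMM scaling, which assumes that most genes do not differ, moved all ratios up by 0.24. With TMM totals 28.1% of tested genes were called higher in replicate 2 and 26.3% lower, and each member kept its direction and its call. Counted without regard to strand, where the library totals are smaller, Mir450b no longer passed (adjusted p = 0.82). edgeR's exact test allows for spread between libraries, but here the difference it tests is also its only source for that spread, so a near absence of calls was fixed in advance and says nothing about the stability of the ratios. By this test 0 members passed, 0 had an unadjusted p under 0.05, and the smallest unadjusted p of a member was 0.40. That test called 0.454% of the 441 genes, and 25 genes had an unadjusted p under 0.05. Among the 243 genes with a mean count of 100 or more, 50 had a ratio farther from 0 than Mir503, 102 than Mir542 and 142 than Mir322.

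**Figure D2:**
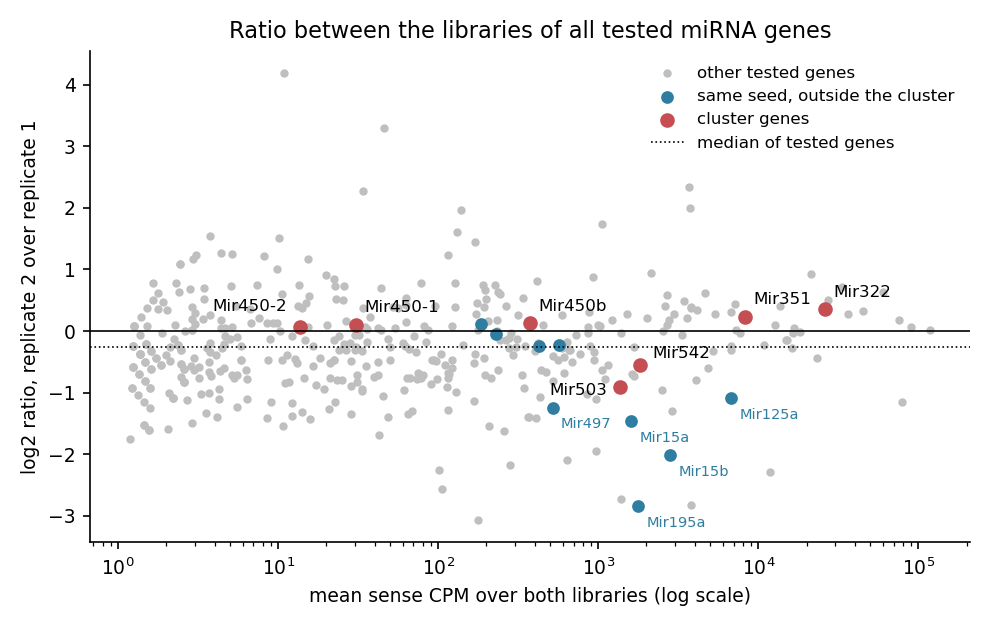
Log2 ratio of replicate 2 over replicate 1, on log2(CPM + 1), against mean sense CPM (log scale) for the 441 tested genes, with the cluster genes in red and the listed miR-15/16 and miR-125 family genes encoded elsewhere in blue. The solid line marks a ratio of 0 and the dotted line the median of -0.26; Mir503 and Mir542 lie below it, and the other 5 members between 0.06 and 0.35.

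Most assigned reads of the listed miR-15/16 family came from the cluster. Mir322 and Mir503 together held 68.2% (68.0 to 68.5) of the family's counts in replicate 1 and 89.8% (89.7 to 90.0) in replicate 2, a mean of 79.0% ± 15.3. The genes set beside them are a list of 8 family names outside the cluster. One of the 8, Mir497b, does not hold the seed in its mature strand, and Mir6342, Mir6353 and Mir6419, which hold it but had 0 counts in both libraries, are not on the list. The miR-15 family is known to restrain proliferation and has been tied to the withdrawal of mouse heart muscle cells from the cell cycle after birth. Of these 8, 6 had enough counts to be tested, 5 were lower in replicate 2 and 0 were higher, where 36.5% and 20.4% of all tested genes were. Mir15b stood at 4521 and 1121 CPM, Mir195a at 3125 and 437 CPM, Mir15a at 2351 and 851 CPM, and Mir497 at 728 and 307 CPM. Their log2 ratios were -2.01, -2.84, -1.47 and -1.24. All 4 were higher in replicate 1, the opposite direction to Mir322 but the same direction as Mir503 (-0.90).

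Mir16-1, at 613 and 521 CPM, was also called lower, with a log2 ratio of -0.23 that became 0.01 under TMM scaling. Mir16-2, at 178 and 192 CPM, did not pass (adjusted p = 0.22, Fisher's exact test). Mir497b had 1 read and Mir195b 0 reads over both libraries, so up to 0.715 and 0.789 CPM (3 counts per library) of Mir195b remain possible. miR-16-5p is encoded identically at both Mir16 genes, so its reads can be multi-mapped and the family total covers only reads placed in 1 gene. Reads lost this way would raise the cluster's share of the family, by an amount that was not tested. Summed, the genes outside the cluster stood at 11516 CPM in replicate 1 and 3429 CPM in replicate 2, while Mir322 and Mir503 stood at 24723 and 30303 CPM. The family total was 36239 and 33732 CPM, a log2 ratio of -0.10 that became 0.14 under TMM scaling.

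Mir351 held 43.5% (43.2 to 43.9) of the counts of the miR-125 seed in replicate 1 and 64.4% (64.0 to 64.8) in replicate 2, a mean of 54.0% ± 14.8. The miR-125 family is known from mouse blood stem cells and neural cells as a regulator of proliferation and differentiation. Mir125a was the main gene outside the cluster, at 9178 and 4334 CPM (log2 ratio -1.08). It was above Mir351 in replicate 1 and below it in replicate 2. Mir125b-1 stood at 463 and 392 CPM (log2 ratio -0.24, and 0.01 under TMM scaling) and Mir125b-2 at 233 and 224 CPM (-0.05, and 0.19 under TMM scaling). Of these 3 genes, Mir125a and Mir125b-1 passed as lower, as did 36.5% of all tested genes, and Mir125b-2 did not pass. Mir6367 and Mir6394, which also hold the seed, had 0 counts in both libraries and are not on the list. miR-125b-5p is encoded identically at both Mir125b genes, so the same limit on assigned reads applies, and such a loss would raise the share of Mir351.

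**Figure D3:**
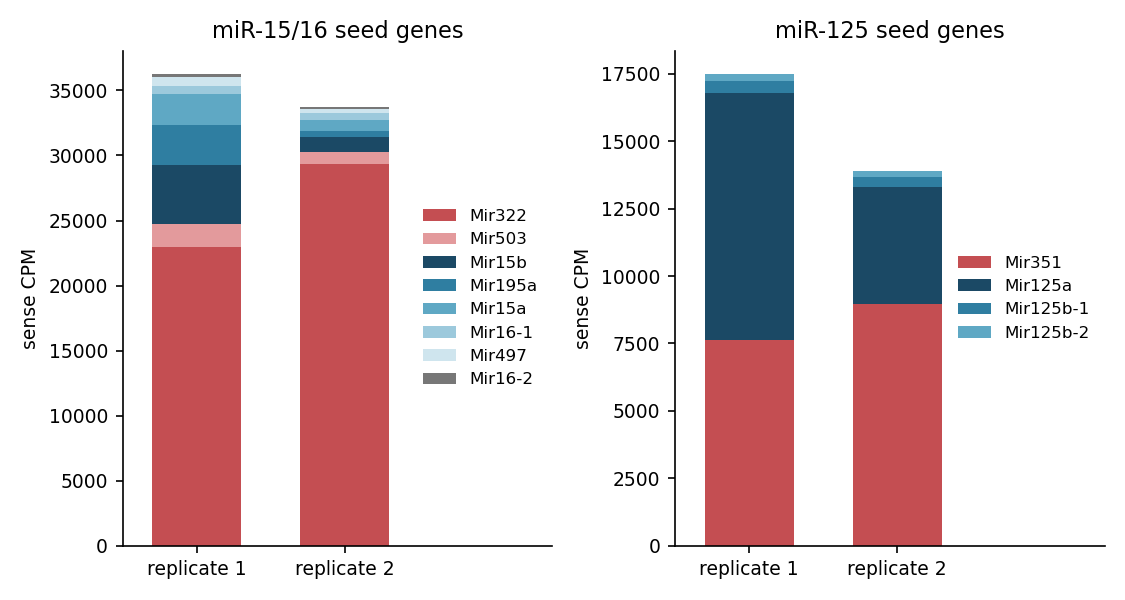
Stacked sense CPM of the listed miR-15/16 family genes (left) and miR-125 family genes (right) with 10 or more counts, in each library, with cluster genes in red shades and genes encoded elsewhere in blue shades or grey. The red part of the left bar is 68.2% of the family in replicate 1 and 89.8% in replicate 2, and that of the right bar 43.5% and 64.4%.

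Compared with other groups of at least 3 miRNA genes on the same strand, each within 10 kb of the next, the cluster had rank 2 of 27 groups in mean summed level, at 38037 ± 4446 CPM. The first was the Mir23b group at 50164 ± 5946 CPM. The next were the Mir23a group at 37345 ± 4863 CPM and the Mir99b group at 34273 ± 4308 CPM, and these SDs overlap with that of the cluster, which had rank 3 in replicate 1 and rank 2 in replicate 2. Mir322 took 65.8% and 71.3% of its group's reads, where the median leading gene of the 11 groups with 3 or more genes at a mean count of 100 took 56.3% and 64.3%. Sums and leading shares hold only reads placed in 1 gene. Groups with gene copies elsewhere, such as Mir24-1 and Mir24-2 in the Mir23b and Mir23a groups, can thus be undercounted. How far this moves the ranks and shares was not tested. Within the cluster, log2 ratios between the libraries ranged over 1.26, from -0.90 to 0.35. Over those 11 groups the range was 0.49 to 3.63, and its median, 1.26, is the value of this cluster itself. The spread of ratios among these neighbours was thus of middle width among the 11 groups. Such a range can widen with the number of genes at that count, which was 6 in the cluster and 3 to 30 over the groups.

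**Figure D4:**
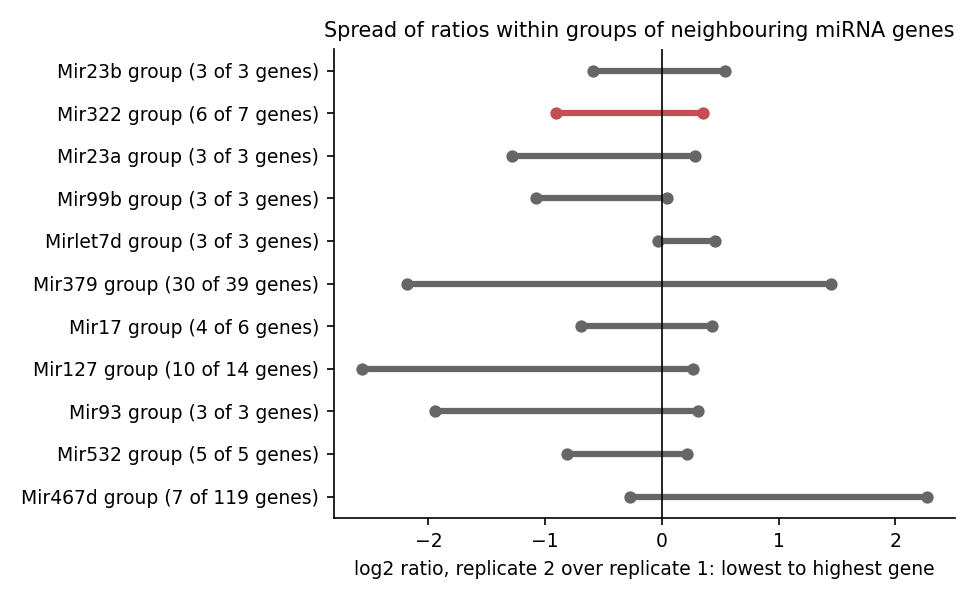
Lowest and highest log2 ratio (replicate 2 over replicate 1) among the genes of each group of neighbouring miRNA genes, for the 11 groups with 3 or more genes at a mean count of 100; groups are named by their leading gene and ordered by mean summed CPM. Labels give how many genes of each group reached that count; the cluster (red) runs from -0.90 to 0.35.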

How the data were processed

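For each miRNA gene the deposited tables give raw counts of reads, without regard to strand, on the gene's strand and on the opposite strand; the strand of each column was read from the values. Per the labels and the description files deposited with them, reads were aligned to mm10 with GENCODE M21 genes and the RNA was in a size range under 30. The aligner is not given in the sources used here. Lines for unmapped, multi-mapped and unassigned reads were kept out of library totals and tests. CPM, shares, Wilson intervals and Fisher's exact tests (scipy 1.17.1) were computed from sense counts; TMM and the exact test, its dispersion estimated from both libraries as 1 group, used edgeR 4.0.16, and size factors DESeq2 1.42.0. A quasi-likelihood test of 1 library against another leaves no residual degrees of freedom. Hairpin energies came from RNAfold 2.7.2. Named genes are the members, the genes next to each in level, the seed families, the marker lists and the groups nearest in summed CPM or on chromosome X. The members and lists were chosen with earlier results of these data known. Alternatives were unstranded counts, totals of all reads, other scalings, pseudocounts of 0.1 and 10 CPM, no count minimum, leaving out each library, and neighbour distances of 3 and 50 kb. Reads that carry CAST/EiJ alleles may be lost against mm10. By the naming convention of the cross, such reads can come from autosomal genes but not from the cluster on chromosome X. The loss was not tested.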

Additional observations from a re-analysis of the deposited data

How the results depend on the processing

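The cluster's share of reads depends on the total used: it was 3.80% of sense counts, 4.94% when counted without regard to strand, where the members' counts are the same and the total is smaller, and 1.61% of all reads. Without replicate 1 or 2 it was 4.12% or 3.49%. Without replicate 1 or 2, the Mir322 share of the cluster was 71.3% or 65.8%, the cluster's share of the miR-15/16 seed 89.8% or 68.2%, and Mir351's share of the miR-125 seed 64.4% or 43.5%; ratios between the libraries cannot be computed without either. Leaving out Mir497b, an alternative chosen after seeing the data because its strand lacks the seed, gave 79.0%. Of 35 recomputed log2 ratios of members, 32 kept their direction and side of the threshold. All 3 exceptions came with counts taken without regard to strand: Mir450-1 went to -0.0049 and Mir450-2 to -0.047, neither called before or after, and Mir450b, at 0.018, lost its call. edgeR's exact test, whose spread comes from the libraries it compares, called 0 members in place of 5 and 2 genes in place of 251. TMM and DESeq2 scaling split the called genes into 124 higher and 116 lower, and 130 and 111, against 90 and 161. With neighbours within 3 kb the cluster breaks up, and the group of Mir322, Mir503 and Mir351 had rank 3 in place of 2. No paired analysis was possible because there is only 1 group. Mir450-1 and Mir450-2, with 53 to 124 counts per library, are limited by depth and by the loss of reads inside their shared run.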
